A study of Mus musculus with 7 samples.

Results

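The collagen genes of the mouse were followed in the immobilized gastrocnemius, a fast muscle of the calf, of animals without DJ-1 in skeletal muscle. A row of the count table was taken as a collagen gene where its symbol had the form Col, a number, a and a number. This rule found 44 genes among the 21487 rows. By type, 11 encode chains of fibrillar collagens, 8 chains of basement membrane collagens (types IV, XV and XVIII), 6 chains of the microfibrillar type VI and 19 chains of other collagens. The knockout group had 4 libraries from mice that the labels name MPARK7KO, in which the DJ-1 gene Park7 was deleted in skeletal muscle. The control group had 3 libraries from flox mice, labelled WT. Both groups had muscle atrophy induced by immobilization, so no library shows a muscle that was free to move. The sources used here do not give the driver of the deletion, the exons removed, or the age and sex of the mice. Nor do the labels say that each library was a separate animal, so a p-value measures only the spread between samples, which may be technical. The collagen genes of muscle are transcribed largely in fibroblasts and other cells of the connective tissue and vessels, in which a deletion restricted to skeletal muscle leaves Park7 in place.

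Collagens are secreted proteins in which chains wind around each other into a stiff helix. Fibrillar collagens assemble into the cables that carry force through the sheaths around muscle fibres and into tendon, type IV collagen forms the sheet of the basement membrane around each fibre and capillary, and type VI forms fine filaments that link that sheet to the fibrils. Other members sit on fibril surfaces, span the cell membrane or form networks of their own. Several collagen genes lie in pairs, and each pair of type IV genes starts from a shared stretch of DNA, read in opposite directions.

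The windows around the start sites of 6 members are shown because the results turn on these genes and on this arrangement. They are the reference promoters of RefSeq (GRCm38.p6), 250 bases before to 50 bases after the start, 5′ to 3′ on the strand of the gene. The first pair is Col4a1 (chr8:11312777-11313076, minus strand) and Col4a2 (chr8:11312555-11312854, plus strand), whose levels differed little between the groups. Capitals mark the 78 bases that lie in both windows, read on opposite strands.
Col4a1: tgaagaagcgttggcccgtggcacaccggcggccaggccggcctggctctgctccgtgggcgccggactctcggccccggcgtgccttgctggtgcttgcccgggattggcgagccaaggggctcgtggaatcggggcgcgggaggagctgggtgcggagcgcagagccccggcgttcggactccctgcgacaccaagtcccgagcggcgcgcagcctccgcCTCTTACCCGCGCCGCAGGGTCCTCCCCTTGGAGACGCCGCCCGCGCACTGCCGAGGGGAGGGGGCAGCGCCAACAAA
Col4a2: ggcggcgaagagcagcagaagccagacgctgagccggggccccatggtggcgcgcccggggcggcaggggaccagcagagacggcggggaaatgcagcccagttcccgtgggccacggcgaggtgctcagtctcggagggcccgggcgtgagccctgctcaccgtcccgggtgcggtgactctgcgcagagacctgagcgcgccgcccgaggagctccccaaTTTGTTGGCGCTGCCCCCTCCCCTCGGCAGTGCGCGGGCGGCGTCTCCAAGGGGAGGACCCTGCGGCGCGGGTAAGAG
The next windows belong to the fibrillar genes Col1a2 (chr6:4505368-4505667, plus strand) and Col3a1 (chr1:45311288-45311587, plus strand), to Col23a1 (chr11:51289670-51289969, plus strand), the member with the smallest p-value, and to Col13a1 (chr10:61979059-61979358, minus strand), the member that rose. Here capitals mark the motifs searched, each on both strands. The first was the CCAAT box, searched by those letters. The second was the TATA box, searched as TATAAA. The third was the GC box, searched as GGGCGG.
Col1a2: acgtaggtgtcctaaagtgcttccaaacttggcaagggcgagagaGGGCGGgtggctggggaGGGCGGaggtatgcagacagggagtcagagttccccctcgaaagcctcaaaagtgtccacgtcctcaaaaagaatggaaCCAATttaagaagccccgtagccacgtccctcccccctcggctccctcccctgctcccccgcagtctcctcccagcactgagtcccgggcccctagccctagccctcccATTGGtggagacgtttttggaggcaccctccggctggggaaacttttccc
Col3a1: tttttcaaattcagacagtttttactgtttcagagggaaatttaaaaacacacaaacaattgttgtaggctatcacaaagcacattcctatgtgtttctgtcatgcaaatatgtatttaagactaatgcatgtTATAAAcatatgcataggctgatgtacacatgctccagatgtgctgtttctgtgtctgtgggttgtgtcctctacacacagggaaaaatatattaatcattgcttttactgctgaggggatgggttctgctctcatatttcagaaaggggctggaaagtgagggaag
Col23a1: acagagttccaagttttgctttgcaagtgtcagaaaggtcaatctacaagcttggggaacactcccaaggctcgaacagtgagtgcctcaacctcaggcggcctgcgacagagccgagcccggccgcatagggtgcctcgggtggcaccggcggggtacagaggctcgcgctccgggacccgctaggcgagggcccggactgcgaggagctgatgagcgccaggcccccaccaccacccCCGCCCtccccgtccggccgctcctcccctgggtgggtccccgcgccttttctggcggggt
Col13a1: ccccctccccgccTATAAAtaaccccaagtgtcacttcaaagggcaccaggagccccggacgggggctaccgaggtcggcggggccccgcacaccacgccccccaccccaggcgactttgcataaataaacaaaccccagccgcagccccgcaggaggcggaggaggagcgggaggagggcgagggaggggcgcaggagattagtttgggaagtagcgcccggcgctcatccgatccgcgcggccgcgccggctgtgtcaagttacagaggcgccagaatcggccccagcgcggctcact
A RefSeq window was found for 35 of the 44 members, 38 windows in all. CCAAT was in 34.2% of these windows and in 37.4% of the 32851 windows of all genes, and TATAAA in 13.2% and 13.6%. GGGCGG was in 60.5% of the collagen windows and in 35.7% of all windows. A match describes the letters only.

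The 7 libraries held 24458339 to 26389008 counts. Park7 read 229 to 266 counts-per-million (CPM) in the controls and 34.7 to 41.5 CPM in the knockouts. The 9 muscle fibre markers listed for the check of the tissue summed to 95189 to 125205 CPM, and none of the listed markers of any cell type was at 0 in every library. Control 3 stood apart for connective tissue. Of the 33 collagen genes that passed the low-count filter and were tested, 17 had their highest control level in control 3, and 7 of the 9 fibrillar genes tested did, against 31% of all genes tested. The 8 tenocyte markers, genes of tendon cells, summed to 175 CPM in control 3, 47.9 and 51.1 CPM in controls 1 and 2, and 16.7 to 53.2 CPM in the knockouts. Control 1 stood apart for the Schwann cell marker Pmp22, given with the other markers. The part of these cells in the results was not tested, and values without control 3 are given beside the collagen results that rest on it. In whole muscle, fewer cells of a type cannot be told apart from less RNA per cell.

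Of the 33 members tested, 10 fell and 1 rose in the knockout. Those that fell were the fibrillar Col1a1, Col3a1 and Col5a2, the basement membrane gene Col18a1, the type VI genes Col6a1 and Col6a2, and Col14a1, Col16a1, Col23a1 and Col8a1. The gene that rose was Col13a1. Genes were called at an adjusted p under 0.05 by edgeR's quasi-likelihood test with Benjamini-Hochberg adjustment over all 13409 genes tested, where 14.9% were called, 8.23% lower and 6.67% higher. Among the members 33.3% were called. At an unadjusted p under 0.05 there were 18 members, where the share of all genes was 31.8%. The median log2 fold change (knockout minus control) of the tested members was -0.49, with 25 values below 0 and 8 above, and that of all genes tested was 0.0058. The members' median was -0.38 without control 3. The groups did not overlap in 8 members (24.2%), nor in 28.8% of all genes tested.

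The calls depended on which libraries were in the comparison. Col23a1 was called lower without each library in turn and under all 15 alternative settings. It was the only member called lower without control 1, control 3, knockout 3 or knockout 4, in fits where 6.12%, 5.83%, 7.15% and 9.41% of all genes were called. Without knockout 2 (15.5% of all genes called) the members called lower were Col23a1, Col5a2 and Col8a1. Without control 2 (7.64%) and without knockout 1 (13%) there were 11. Col13a1 lost its call without each library except knockout 1. The 10 falls and the rise were also called without a low-count filter (7.63% of all genes called) and with RLE (14.7%) or upper quartile scaling (14.5%). Limma voom (14.3%) called 7 of the 10 lower and DESeq2 (15.5%) all 10, and the fit with the replicate number as a block (9.49%) called 4. In each of these fits the 11 called genes kept the direction of their log2 fold change.

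**Figure D1:**
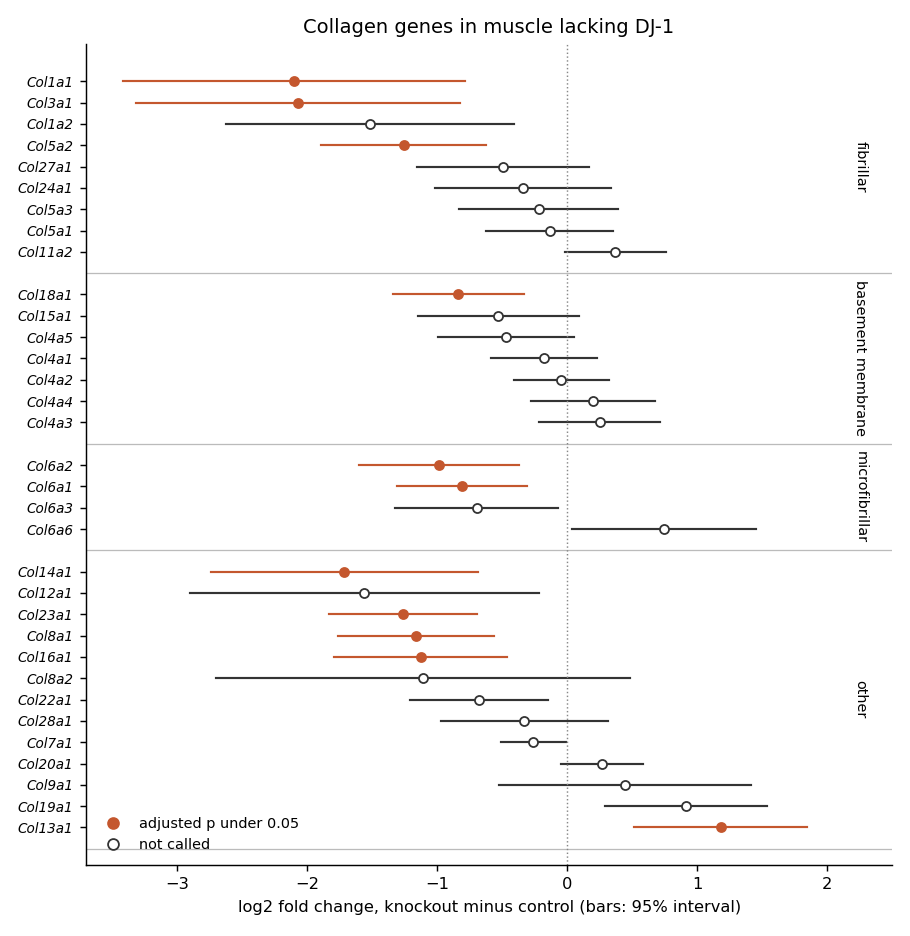
Log2 fold change (knockout minus control, horizontal axis) of the 33 collagen genes tested, ordered within each class, with 95% intervals from the fit across all genes. Filled points are the 11 genes called at an adjusted p under 0.05, of which Col13a1 alone lies above 0, and the median of the 33 values is -0.49.

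Of the genes of type I and type III collagen, the bulk of the force-bearing fibrils, Col1a1 and Col3a1 fell and Col1a2 did not pass the test, with wide spread among the controls in each. Col1a1, the alpha-1 chain of type I collagen (chromosome 11, 94936224 to 94953042, plus strand of GRCm38), read 27.9, 18.2 and 98.1 CPM in controls 1 to 3 and 20.8, 6.39, 9.80 and 7.82 CPM in knockouts 1 to 4. Control 3 was far above the other controls, and knockout 1 lay above control 2, so the groups overlapped. Col1a1 fell, with means of 48.0 ± 43.6 CPM (n = 3, ± SD) and 11.2 ± 6.54 CPM (n = 4, ± SD) and a log2 fold change of -2.10 with a standard error of 0.583 (edgeR adjusted p = 0.0429). Without control 3 the log2 fold change was -1.03 (adjusted p = 0.171). Its partner chain Col1a2 (chromosome 6, 4504814 to 4541544, plus strand) read 56.5, 35.8 and 154 CPM in the controls and 49.8, 20.2, 25.2 and 19.5 CPM in the knockouts. Control 3 and knockout 1 were again the highest of their groups, and the test was not passed (log2 fold change -1.52, SE 0.489, adjusted p = 0.0686; -0.68 without control 3). Col3a1 encodes the chain of type III collagen, which forms thin fibrils in the sheaths of muscle and in vessel walls (chromosome 1, 45311538 to 45349706, plus strand). It read 79.1, 45.3 and 204 CPM in the controls and 50.7, 15.1, 23.4 and 14.99 CPM in the knockouts, and only knockout 1 reached above a control. It fell, with means of 109 ± 83.4 CPM (n = 3, ± SD) and 26.1 ± 16.9 CPM (n = 4, ± SD) and a log2 fold change of -2.07 with a standard error of 0.552 (adjusted p = 0.0379). Without control 3 its log2 fold change was -1.25 (adjusted p = 0.145).

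Of the chains of type V collagen, which starts fibrils and limits their width, Col5a2 was called and Col5a1 and Col5a3 were not. The direct comparison of Col5a1 with Col5a2 within libraries had an adjusted p of 0.1 (exact permutation test). Col5a2 (chromosome 1, 45374321 to 45503282, minus strand) read 18.3, 11.1 and 26.9 CPM in the controls and 10.4, 6.35, 7.97 and 6.57 CPM in the knockouts. Every knockout lay below every control. It fell, with means of 18.8 ± 7.89 CPM (n = 3, ± SD) and 7.83 ± 1.88 CPM (n = 4, ± SD) and a log2 fold change of -1.26 with a standard error of 0.281 (adjusted p = 0.0216). Without control 3 the log2 fold change was -0.90 (adjusted p = 0.0710). Col5a1, whose product pairs with that of Col5a2 (chromosome 2, 27886425 to 28039514, plus strand), read 23.6, 14.2 and 27.1 CPM in the controls. In the knockouts it read 23.9, 15.8, 18.1 and 21.1 CPM, all within the range of the controls. Its log2 fold change was -0.13 (95% interval -0.62 to 0.36, adjusted p = 0.709), a value that was 0.07 without control 3. The third chain, Col5a3, had a log2 fold change of -0.22 (adjusted p = 0.615).

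Fibrillar genes better known from cartilage and developing bone were not called. Col11a2, a chain of type XI collagen, had a log2 fold change of 0.37 (adjusted p = 0.172), the single positive value among the 9 fibrillar genes tested. Col24a1 and Col27a1, which encode minor fibrillar chains, had values of -0.34 and -0.49 (adjusted p = 0.465 and 0.281). Of the fibrillar class as a whole 3 genes fell, 0 rose and 6 were not called, among them Col1a2, which was called without control 2 or without knockout 1 (adjusted p = 0.0454 and 0.0402). The class median was -0.49, and -0.52 without control 3.

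**Figure D2:**
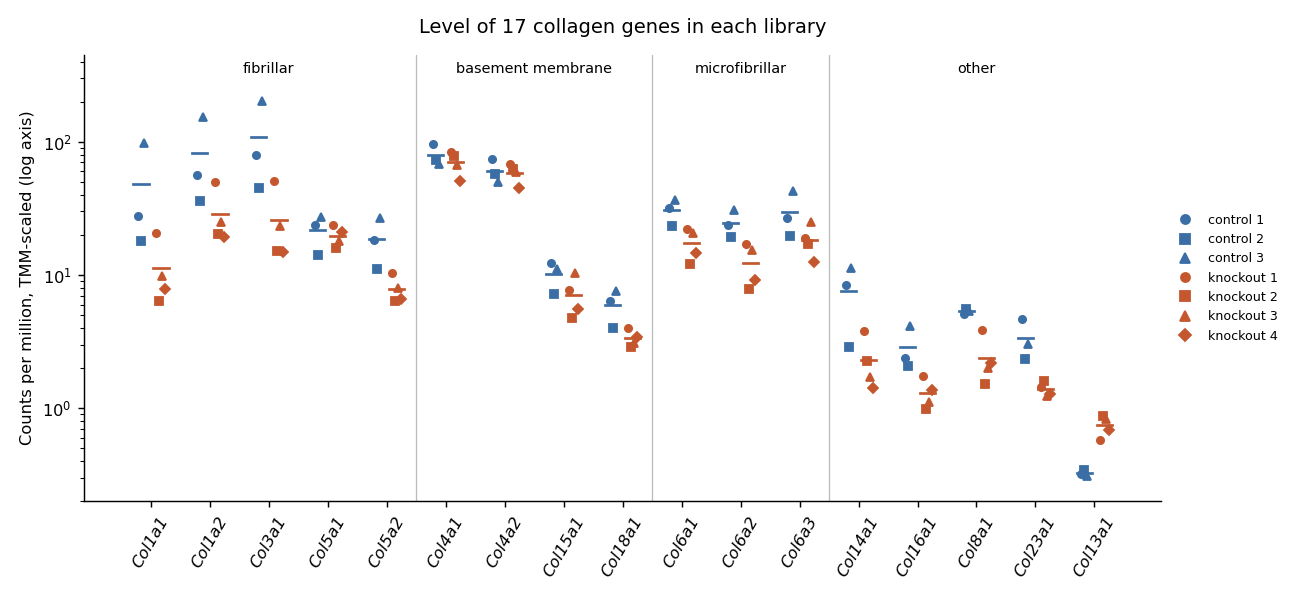
Level in CPM on a log axis of 17 collagen genes in each library, with horizontal bars at the group means (3 controls, 4 knockouts). In the genes of types I and III control 3 is the highest library, whereas the type IV genes Col4a1 and Col4a2 read 45.3 to 96.7 CPM in all 7 libraries with the groups mixed.

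Neither of the main genes of the basement membrane sheet was called. Col4a1 (chromosome 8, 11198423 to 11312826, minus strand) read 96.7, 72.8 and 68.3 CPM in the controls and 84.6, 78.2, 66.8 and 50.8 CPM in the knockouts. Control 1 was the highest library, control 3 the lowest of the controls and knockout 4 the lowest of all. The means were 79.2 ± 15.2 CPM (n = 3, ± SD) and 70.1 ± 14.8 CPM (n = 4, ± SD), with a log2 fold change of -0.18 (95% interval -0.58 to 0.23, adjusted p = 0.535). Col4a2 (chromosome 8, 11312805 to 11449287, plus strand) read 74.1, 57.7 and 49.95 CPM in the controls. In the knockouts it read 67.7, 62.3, 59.5 and 45.3 CPM, and within each group the libraries were in the same order as for Col4a1. Its log2 fold change was -0.05 (95% interval -0.41 to 0.32, adjusted p = 0.874). A fall of either gene as deep as that of Col1a1 or Col3a1 with all libraries (-2.10 and -2.07) lies outside these intervals. Without control 3 the log2 fold changes were -0.27 for Col4a1 and -0.17 for Col4a2, and -1.03 for Col1a1 and -1.25 for Col3a1. The ratio of Col4a1 to Col1a1 did not pass its test (exact permutation, adjusted p = 0.133). The first exons of Col4a1 and Col4a2 overlap by 22 bases on opposite strands, within the 78 bases that the windows share.

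The chains that build type IV networks in specialised membranes were low and were not called. Col4a3 and Col4a4, a head-to-head pair 71 bases apart on chromosome 1 and best known from the kidney, had log2 fold changes of 0.25 and 0.20 (adjusted p = 0.437 and 0.554). Col4a5, on the X chromosome, had a value of -0.47 (adjusted p = 0.198). Type XV and XVIII collagens carry sugar chains and sit at the border of the basement membrane and the surrounding matrix. Col15a1 (chromosome 4, 47208161 to 47313167, plus strand) read 12.4, 7.17 and 11.1 CPM in the controls and 7.69, 4.79, 10.3 and 5.52 CPM in the knockouts. The groups overlapped, and the log2 fold change of -0.53 (standard error 0.273, adjusted p = 0.219) did not pass. Col18a1, the source of the vessel inhibitor endostatin (chromosome 10, 77052178 to 77166548, minus strand), read 6.43, 3.99 and 7.57 CPM in the controls. In the knockouts it read 4.03, 2.89, 3.07 and 3.43 CPM, and knockout 1 was just above control 2. It was the member of this class that fell, by 0.84 in log2 units (standard error 0.223, adjusted p = 0.0377), and its value without control 3 was -0.63 (adjusted p = 0.134). With 1 of 7 genes called lower and 0 higher (14.3% called, against 14.9% of all genes), the class had a median log2 fold change of -0.18. The middle value of these 7 genes was -0.27 (Col4a1) without control 3.

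Type VI collagen, whose loss causes muscular dystrophy, had less RNA of its alpha-1 and alpha-2 chains. Col6a1 (chromosome 10, 76708792 to 76726168, minus strand) read 31.8, 23.4 and 36.4 CPM in the controls and 22.1, 12.1, 20.8 and 14.6 CPM in the knockouts. Col6a2, downstream of it on the same strand (76595762 to 76623630), read 23.7, 19.2 and 30.6 CPM in the controls and 17, 7.84, 15.4 and 9.23 CPM in the knockouts. In both genes every knockout lay below every control, and knockouts 2 and 4 were the lowest. Col6a1 fell, with means of 30.5 ± 6.57 CPM (n = 3, ± SD) and 17.4 ± 4.81 CPM (n = 4, ± SD) and a log2 fold change of -0.81 with a standard error of 0.221 (adjusted p = 0.0413). Col6a2 fell, with means of 24.5 ± 5.72 and 12.4 ± 4.51 CPM and a log2 fold change of -0.98 with a standard error of 0.271 (adjusted p = 0.0418). Without control 3 the values were -0.66 and -0.79 (adjusted p = 0.140 and 0.142).

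The alpha-3 chain gene Col6a3, which completes the usual type VI molecule (chromosome 1, 90765923 to 90843971, minus strand), read 26.8, 19.6 and 42.5 CPM in the controls and 18.9, 17, 24.9 and 12.5 CPM in the knockouts. Knockout 3 lay above control 2, and the log2 fold change of -0.70 (standard error 0.276, adjusted p = 0.123) did not pass. It was -0.34 without control 3 (adjusted p = 0.424). Col6a6, which encodes a chain that can stand in for alpha-3, had a log2 fold change of 0.74 (adjusted p = 0.141). The class of 4 tested genes had 2 called lower, 0 higher and a median of -0.75, which was -0.50 without control 3.

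Among collagens bound to fibril surfaces, Col14a1 and Col16a1 fell. Col14a1, which coats type I fibrils and limits their growth (chromosome 15, 55307750 to 55520803, plus strand), read 8.44, 2.87 and 11.4 CPM in the controls and 3.77, 2.25, 1.71 and 1.41 CPM in the knockouts. Control 2 was near the knockouts, and knockout 1 lay above it. The log2 fold change was -1.71 (standard error 0.453, adjusted p = 0.0368), and -1.29 without control 3 (adjusted p = 0.132). Col16a1 (chromosome 4, 130047840 to 130099283, plus strand) read 2.37, 2.07 and 4.13 CPM in the controls and 1.74, 0.989, 1.12 and 1.37 CPM in the knockouts. Its groups did not overlap, and it fell by 1.13 in log2 units (standard error 0.293, adjusted p = 0.0349; -0.76 and 0.117 without control 3).

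The other genes of this group were not called and went in both directions. Col12a1, a partner of type I fibrils in tendon and muscle sheaths, had a log2 fold change of -1.56 (adjusted p = 0.110) that was -0.41 without control 3. Col22a1, a collagen of the junction between muscle and tendon, had a value of -0.68 (adjusted p = 0.0856), which was -0.90 without control 2 (adjusted p = 0.0374) and -0.38 without control 1 (adjusted p = 0.297). Col19a1 had a value of 0.91 (adjusted p = 0.0555, and 0.0218 to 0.172 with a library left out). Col20a1 and Col9a1 had values of 0.27 and 0.44 (adjusted p = 0.219 and 0.510).

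Of the collagens that span the cell membrane, Col23a1 fell and Col13a1 rose. Col23a1 (chromosome 11, 51289920 to 51583918, plus strand) read 4.70, 2.34 and 3.05 CPM in the controls and 1.45, 1.60, 1.23 and 1.29 CPM in the knockouts. Every knockout lay below every control, and the knockouts were close together. It fell, with means of 3.36 ± 1.21 CPM (n = 3, ± SD) and 1.39 ± 0.165 CPM (n = 4, ± SD) and a log2 fold change of -1.26 with a standard error of 0.253 (adjusted p = 0.0147). With each library left out in turn the log2 fold change ran from -1.47 to -0.95 and the adjusted p from 0.0179 to 0.0440. Col13a1, a collagen of the muscle fibre membrane needed at the nerve-muscle synapse (chromosome 10, 61838236 to 61979108, minus strand), was near the bottom of the tested range. It had 8, 9 and 8 counts in the controls and 16, 23, 21 and 17 counts in the knockouts. Those counts are 0.325 ± 0.0182 CPM (n = 3, ± SD) and 0.744 ± 0.137 CPM (n = 4, ± SD), without overlap, with a log2 fold change of 1.18 and a standard error of 0.295 (adjusted p = 0.0310). The call was lost with DESeq2 (adjusted p = 0.0649), and leaving out a library other than knockout 1 gave an adjusted p of 0.0536 to 0.0967.

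Of the network and anchoring collagens, Col8a1 fell. Col8a1, a short-chain collagen of vessel walls (chromosome 16, 57624258 to 57754737, minus strand), read 5.11, 5.60 and 5.41 CPM in the controls and 3.85, 1.52, 1.99 and 2.18 CPM in the knockouts. The controls lay close together, all above the knockouts, and control 3 was not the highest. It fell, with means of 5.37 ± 0.248 CPM (n = 3, ± SD) and 2.38 ± 1.01 CPM (n = 4, ± SD) and a log2 fold change of -1.16 with a standard error of 0.266 (adjusted p = 0.0234). Without control 3 the log2 fold change was -1.16 (adjusted p = 0.0690). Its partner Col8a2 had a value of -1.11 (adjusted p = 0.315) that was -0.099 without control 3 (adjusted p = 0.948). Col7a1 of the anchoring fibrils of skin had a value of -0.26 (adjusted p = 0.144) and Col28a1, known from nerve sheaths, one of -0.33 (adjusted p = 0.456). The groups did not overlap in Col7a1, at 25.5 to 34.1 CPM in the controls and 22.7 to 25.3 CPM in the knockouts. Over the 13 tested genes outside the fibrillar, basement membrane and type VI classes, 4 fell, 1 rose and the median was -0.68. The middle value of these 13 genes was -0.41 (Col12a1) without control 3.

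The 11 members that were not tested had too few counts. Col2a1, Col9a2, Col9a3, Col10a1, Col17a1, Col6a4 and Col6a5 had 0 to 9 counts in every library. Col4a6 had 5 to 12 counts, Col26a1 6 to 16 and Col25a1 1 to 19. Col11a1, a cartilage fibril chain, had 84 counts in control 3, 11 and 2 in controls 1 and 2, and 1 to 8 in the knockouts. A fit without the filter called none of them, whereas Col11a1 was called lower by DESeq2 and in the fit without control 2.

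All collagen genes together took 0.0643% ± 0.0217 of control counts (n = 3, ± SD) and 0.0385% ± 0.00880 of knockout counts (n = 4, ± SD). Their share in the knockouts was 0.599 times that in the controls, and 0.725 times without control 3. The fibrillar genes took 0.0255%, 0.0146% and 0.0531% of the counts in controls 1 to 3 and 0.0198%, 0.00922%, 0.0116% and 0.00936% in knockouts 1 to 4. Knockout 1 exceeded control 2, and the ratio of means was 0.402, or 0.623 without control 3. The basement membrane genes had a ratio of 0.903, type VI one of 0.589 and the other collagens one of 0.752. With control 3 left out these ratios were 0.846, 0.681 and 0.755. Of the collagen counts, fibrillar genes made up 45.2% ± 14.4 in the controls and 31.7% ± 5.27 in the knockouts. Basement membrane genes made up 27.2% ± 9.54 and 38.1% ± 4.11. In control 3 the shares were 61.3% and 16.2%, in controls 1 and 2 they were 40.4% and 33.8% for the fibrillar genes, and 31.7% and 33.6% for the basement membrane genes.

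**Figure D3:**
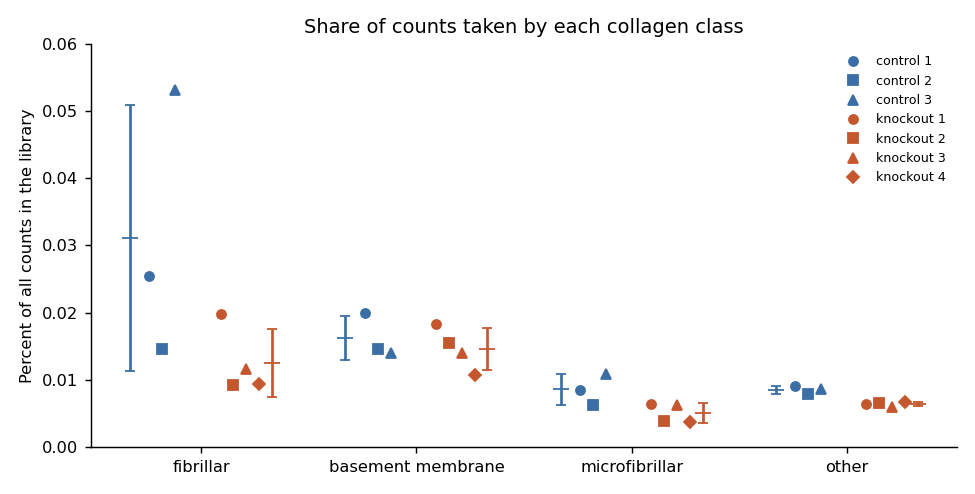
Percent of all counts in a library (vertical axis, from 0) taken by each class of collagen genes, one symbol per library, with bars at mean ± SD (n = 3 controls, n = 4 knockouts). The fibrillar share runs from 0.0146% to 0.0531% in the controls and from 0.00922% to 0.0198% in the knockouts, and the basement membrane shares of the groups overlap.

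Per kilobase of the longest coding transcript, the order of the most abundant genes by group mean differed between the groups. In the controls Col3a1 was first at 19.7 ± 15 CPM per kilobase, followed by Col1a2 at 15.3 ± 11.8, Col4a1 at 12 ± 2.30, Col4a2 at 9.39 ± 1.92 and Col1a1 at 8.10 ± 7.35 (SD, n = 3). The mean ± SD ranges of neighbours in this order overlapped, and Col3a1 was first only in control 3. In controls 1 and 2 Col4a1 was first, as it was in each knockout, and Col4a2 was above Col1a2. In the knockouts Col4a1 was first at 10.6 ± 2.24 CPM per kilobase and Col4a2 second at 9.10 ± 1.49, ahead of Col1a2 at 5.36 ± 2.68 and Col3a1 at 4.68 ± 3.04 (SD, n = 4). Col1a1 was in place 5 in the controls and in place 11 in the knockouts, at 1.89 ± 1.10 CPM per kilobase.

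Ratios between chains were compared within each library, where the scaling between libraries cancels. With 3 and 4 libraries there are 35 splits, so the smallest p of the exact permutation test is 0.0286, and over the 7 ratios tested no adjusted p was under 0.1. Col5a1 to Col5a2 had count ratios of 1.29, 1.28 and 1.01 in the controls and 2.28, 2.49, 2.27 and 3.21 in the knockouts. The groups were well apart, with a difference of 1.10 in log2 ratio (exact permutation p = 0.0286, adjusted p = 0.1). Col1a1 to Col1a2, which form type I collagen together, had ratios of 0.493, 0.507 and 0.639 in the controls. In the knockouts the ratios were 0.418, 0.317, 0.389 and 0.402, all below the controls, a log2 difference of -0.52 (exact permutation p = 0.0286, adjusted p = 0.1). Col4a1 to Col1a1 ran from 0.696 in control 3 to 4 in the controls and from 4.07 to 12.2 in the knockouts (log2 difference 1.69, exact permutation p = 0.0571, adjusted p = 0.133; log2 difference 0.88 without control 3). Col4a1 to Col4a2 stayed between 1.12 and 1.37 in all libraries (log2 difference -0.14, exact permutation p = 0.114, adjusted p = 0.2). Col6a1 to Col6a2, Col6a3 to Col6a1 and Col3a1 to Col1a1 had log2 differences of 0.21, 0.16 and -0.11 (exact permutation p = 0.143, 0.4 and 0.4).

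**Figure D4:**
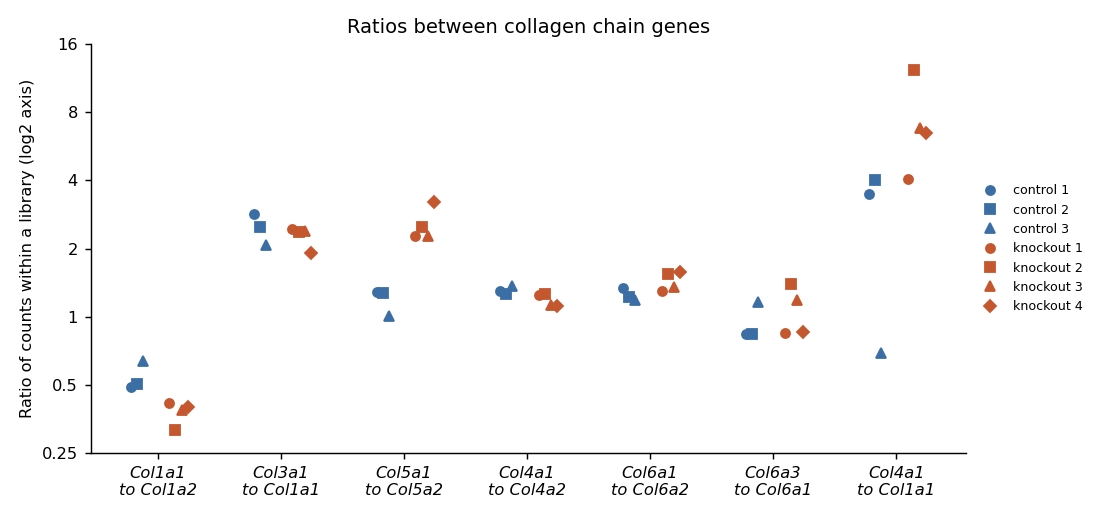
Ratio of the counts of paired collagen genes within each library, on a log2 axis, for 7 pairs, with one symbol per library. The Col5a1 to Col5a2 ratio lies at 1.01 to 1.29 in the controls and 2.27 to 3.21 in the knockouts, and the Col4a1 to Col4a2 ratio lies between 1.12 and 1.37 throughout.

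Members that neighbour each other in the genome were described side by side. Col3a1 and Col5a2 lie tail to tail, 24.6 kb apart, and both fell. Col6a1 and Col6a2, 85.2 kb apart on the same strand, both fell. Neither Col4a1 nor Col4a2 was called, nor Col4a3 or Col4a4. Col9a1 and Col19a1, tail to tail and 9.2 kb apart, had log2 fold changes of 0.44 and 0.91 and were not called. Among the called genes, Col3a1 alone has an exon that overlaps another annotated gene on GRCm38, a predicted microRNA of 141 bases that is not a row of the table.

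Genes whose products fold, trim, cross-link, bind, take up or regulate collagen were counted in 7 lists by role. Counts of called genes in them stand against 14.9% of all genes tested. Of 21 tested genes of collagen folding and modification, 3 fell and 1 rose (19% called), with a median log2 fold change of -0.12. Fkbp10 and Fkbp7, which help collagen chains to fold, fell by 0.94 and 0.66 in log2 units (adjusted p = 0.0251 and 0.0418). P3h4, a partner of the enzymes that modify collagen lysines, fell by 0.81 (adjusted p = 0.0484). Mia3, which loads bulky procollagen into export carriers, read 117 to 125 CPM in the controls and 140 to 171 CPM in the knockouts and rose by 0.32 (adjusted p = 0.0367).

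Outside the cell, 3 of 12 genes of procollagen trimming and cross-linking fell and 0 rose (median -0.36). Loxl1 and Loxl2, oxidases that start cross-links, fell by 0.76 and 0.74 in log2 units (adjusted p = 0.0321 and 0.0331). The expected counts of Loxl2 were not whole, so part of its reads may belong to other genes, which was not examined. Bmp1, the protease that removes the end of fibrillar procollagens, read 14.6 to 17.4 CPM in the controls and 9.75 to 13.9 CPM in the knockouts and fell by 0.51 (adjusted p = 0.0353). The calls of Fkbp10, Fkbp7, P3h4, Mia3, Loxl1, Loxl2 and Bmp1 were each lost without control 3 and without several other libraries in turn. Without control 3 the log2 fold changes of the 6 that fell were -0.84 to -0.48, and that of Mia3 was 0.35. Of 10 genes of collagen breakdown 0 were called by edgeR, with 4 at an unadjusted p under 0.05 and a median of -0.32. The 2 with the smallest p were Mrc2, a receptor that takes up collagen (log2 fold change -0.58, adjusted p = 0.0639), and the protease gene Ctsk (-1.66, adjusted p = 0.0888). Their log2 fold changes were -0.38 and -0.62 without control 3.

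Many genes of proteins that coat or anchor fibrils fell. Of 25 tested proteoglycans and glycoproteins, 11 fell and 0 rose (44% called), with a median of -0.92 and 24 values below 0. Lum, which encodes lumican, a spacer of fibrils, read 14.5 to 25.3 CPM in the controls and 5.40 to 9.18 CPM in the knockouts (log2 fold change -1.46, adjusted p = 0.00641). Biglycan (Bgn) fell by 1.41 in log2 units (adjusted p = 0.00387). Tgfbi, a linker of collagens and cells, and Tnxb, a glycoprotein that ties fibrils together, fell by 0.92 and 0.68 (adjusted p = 0.00652 for both). These 4 genes were called without each library in turn, control 3 included. Of 11 collagen receptors 2 fell, Cspg4, which binds type VI collagen, by 0.71 (adjusted p = 0.00781, called without each library) and Antxr1 by 1.03 (adjusted p = 0.0494, lost without each library except control 2).

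Among 12 other components of the basement membrane, 1 rose and 1 fell (median -0.11). Smoc1 rose by 1.23 in log2 units, from 1.31 to 1.46 CPM in the controls to 2.25 to 4.30 CPM in the knockouts (adjusted p = 0.0140; 1.19 and 0.0522 without control 3). Sparcl1 fell by 0.58 (adjusted p = 0.0178, and 0.0658 without control 1). Of 21 genes of TGF-beta signalling, a main inducer of collagen genes, and of collagen gene regulators, 1 rose and 2 fell (median -0.03). Ltbp4, which stores latent TGF-beta in the matrix, read 51.0 to 55.5 CPM in the controls and 33.2 to 35.8 CPM in the knockouts and fell by 0.62 (adjusted p = 0.00298). The receptor gene Tgfbr1 rose by 0.40 and the ligand gene Tgfb3 fell by 0.36 (adjusted p = 0.0302 and 0.0455), calls that were lost without any 1 of the controls. Without control 3 their log2 fold changes were 0.39 and -0.37 (adjusted p = 0.0987 and 0.112).

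**Figure D5:**
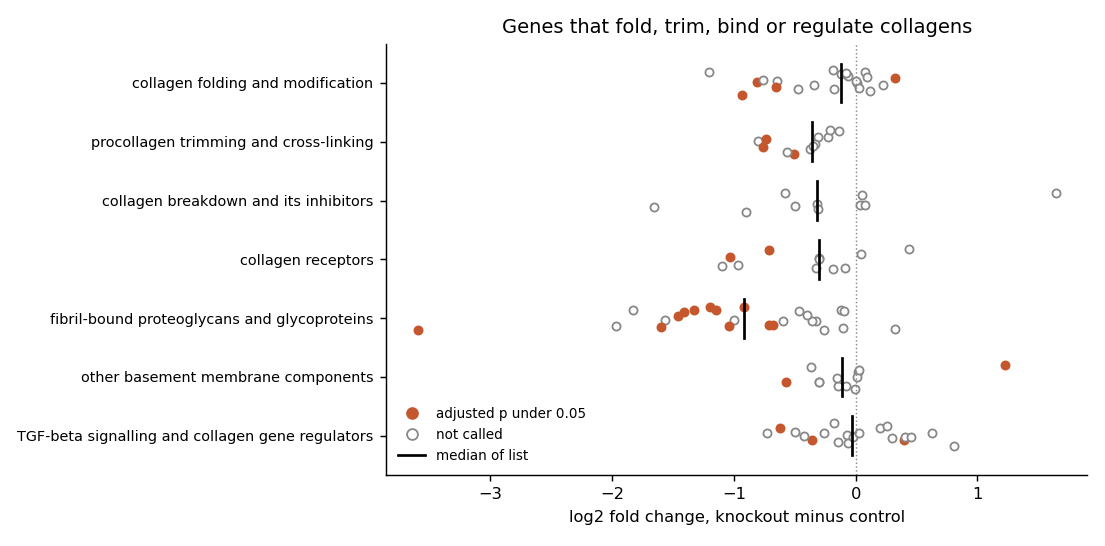
Log2 fold change (knockout minus control, horizontal axis) of each tested gene in 7 lists of collagen partners, with filled points for genes called at an adjusted p under 0.05 and a bar at each list's median. The medians are -0.92 for fibril-bound proteoglycans and glycoproteins and between -0.36 and -0.03 for the other lists, and vertical spread within a list only separates the points.

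Markers of the cells that could supply this RNA were counted in the same way. The lists share some genes, and the markers Lum and Thbs4 were also counted among the fibril-bound proteoglycans and glycoproteins. The shares called were 18.2% of the fibroblast, 20% of the tenocyte, 16.7% of the endothelial, 44.4% of the pericyte and smooth muscle and 33.3% of the macrophage markers tested, against 14.9% of all genes. Of 11 tested fibroblast markers 2 fell, Lum and Cd34, by 1.46 and 0.60 in log2 units (adjusted p = 0.00641 and 0.0140). The markers summed to 558 to 816 CPM in the controls and 540 to 691 CPM in the knockouts, and Pdgfra, a defining gene of fibroblast progenitors, had a log2 fold change of -0.28 (adjusted p = 0.360). Of 5 tested tenocyte markers Thbs4 fell, by 1.60 (adjusted p = 0.0233; -1.02 and 0.0671 without control 3). Tnmd, which marks tendon cells, read 7.03 CPM in control 3, 0.482 and 0.230 CPM in controls 1 and 2, and 0.152 to 0.363 CPM in the knockouts.

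Of 12 endothelial markers 2 fell, Tie1 and Egfl7, by 0.47 and 0.59 in log2 units (adjusted p = 0.0162 and 0.0172), with sums of 344 to 412 CPM in the controls and 287 to 344 CPM in the knockouts. Of 9 markers of pericytes and smooth muscle 4 fell, Myh11, Acta2, Kcnj8 and Pdgfrb, by 0.37 to 0.71. Their sums were 698 to 799 CPM and 683 to 719 CPM. Of 9 macrophage markers 3 fell, Csf1r, Lyz2 and Cd68, by 0.94 to 1.94, with sums of 53.1 to 88.2 CPM and 35.6 to 55.7 CPM. Among Schwann cell markers, Pmp22, a gene of the myelin sheath, read 93.7 CPM in control 1, 26.8 and 32.0 CPM in controls 2 and 3, and 18.3 to 20.9 CPM in the knockouts. It fell by 1.39 in log2 units (adjusted p = 0.0386), and its value without control 1 was -0.60 (adjusted p = 0.0262), but the call was lost without each knockout in turn. Of 7 satellite cell markers 0 were called by edgeR (2 at an unadjusted p under 0.05), of 5 adipocyte markers 1 fell (Retn) and of 9 fibre markers 1 fell (Mb, myoglobin). Without control 3 the calls of Tie1, Egfl7, Myh11, Acta2, Kcnj8, Pdgfrb, Lyz2, Cd68 and Retn were lost (adjusted p = 0.0514 to 0.0837), with log2 fold changes of -2.03 to -0.41, and those of Lum, Cd34, Csf1r and Mb held without each library in turn. The part of any of these cells in the collagen results was not tested.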

How the data were processed

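RNA was measured in 7 libraries of immobilized gastrocnemius (3 controls, 4 knockouts), read on the BGISEQ-500 as 150 bp paired ends with 30 M reads intended, per the labels' protocols. Reads were mapped by the authors with STAR 2.7.10a (mm10) and counted by RSEM 1.2.28, with DESeq2 (1.3.40 as stated) as their test, per the submitters' processing notes. The deposited table holds RSEM expected counts, 2245 of whose rows are not whole (0 of the collagen genes). The sources used here do not give the gene annotation or the strand setting.

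Expected counts were rounded and tested in R 4.3.3 with edgeR 4.0.16 (filterByExpr, TMM scaling, quasi-likelihood F test with bias-adjusted deviances, Benjamini-Hochberg over 13409 genes). Standard errors were derived as the size of the log2 fold change divided by the root of F. CPM use TMM library sizes, and lengths are of the longest coding transcript of GENCODE M21. On simulated counts of the same design (13392 to 13415 genes tested), 41.7%, 84.5% and 99.6% of set changes of 1.5, 2 and 4 times were called, and 7.32% of calls were false, against the 5% aimed at. Each simulated gene had the typical spread of genes at its level, and no library stood apart. These rates therefore need not hold for genes with wider spread, such as Col1a1. Alternatives were RLE or upper quartile scaling, fits without a filter or with a mean count of 10 or more, DESeq2 1.42.0, limma 3.58.1 voom, a replicate block and leaving out each library. Libraries held 24458339 to 26389008 counts, which leaves genes with few counts imprecise.

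The collagen classes, 7 role lists and 9 marker lists (197 genes, 181 tested, 36 lower and 3 higher) were chosen with earlier results of these data known. Of the Schwann cell list, the count and summed level are not reported here. Named in every library were 12 main members and each other called member. Other tested members were named with their fold change. From each list up to 4 called genes with the smallest p were named, or 2 where none was called. Col7a1, Tnmd, Pdgfra and Col11a1 were given added values after these had been seen.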

Additional observations from a re-analysis of the deposited data

Results flagged for a closer look

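Among the 45 values checked in the 4 knockouts, 2 had a lone library whose gap to the next filled most of the group's range, where chance gives about 1 in 20. Col4a3, a type IV chain, read 1.43 CPM in knockout 3 and 2.13 to 2.22 CPM in the other knockouts, a gap of 0.891 of the range. The ratio of Col3a1 to Col1a1 was 1.92 in knockout 4, a gap of 0.865 of the range to the other knockouts at 2.37 to 2.44. Neither gap was tested further.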

How the results depend on the processing

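Of 495 recomputed fold changes of single collagen genes (33 genes, 15 alternatives), 419 kept their direction and their side of the threshold, 62 lost a call, 7 gained one and 7 turned. Of 570 for partner genes, markers and Park7, 431 kept both, 132 lost a call and 7 gained one. With 1 library left out, 793 to 2057 of all genes were called (258 to 966 higher, 528 to 1091 lower), 1 to 11 collagen genes lower and 0 to 1 higher, and 14 to 35 listed partner and marker genes lower and 0 to 6 higher. Fewer samples enter such fits. With the replicate number as a block, 1273 genes were called (577 higher, 696 lower), 4 collagen genes lower (Col23a1, Col5a2, Col6a1 and Col6a2) and 0 higher, and 23 listed genes lower. The labels do not say whether same-numbered libraries belong together. The deviations of same-numbered libraries correlated at 0.094, 0.134 and 0.085. Each control correlated best with its own number, but control 3 correlated almost as well with knockout 4 (0.081). This is at most a weak hint from the data and not the design. Listed genes called higher numbered 1 with upper quartile scaling and 8 with DESeq2, against 3. The share of calls that were higher was 44.8% with TMM, 43.5% with RLE and 33.2% with upper quartile scaling, and the 11 called collagen genes kept their call and direction under all of these. DESeq2 called 13 collagen genes lower and 1 higher (Col19a1 in place of Col13a1), and voom 7 and 1, without Col1a1, Col14a1 and Col18a1. The log2 fold changes that turned, with 1 library left out, ran from -0.56 to 0.15 for Col24a1, -0.54 to 0.012 for Col28a1, -0.17 to 0.12 for Col4a2 and -0.44 to 0.19 for Col5a3 (highest without control 1), and from -0.36 to 0.065 for Col5a1 (highest without control 3). Col4a2 also turned without knockout 4 (0.061) and with the block (0.077). The difference in basement membrane share ran from -0.00279 to 0.000332 percentage points, the latter without control 1. The cause of these changes was not tested. The earlier quasi-likelihood estimate of edgeR, chosen after seeing the data, called 1944 genes and the same 11 collagen genes.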

Other observations

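Col25a1, a transmembrane collagen needed for motor nerves to enter muscle, was too low to be tested. It had 10, 19 and 9 counts in the controls and 2, 8, 6 and 1 counts in the knockouts, so that every knockout lay below every control. It was singled out after its values had been seen.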
